A study of Homo sapiens with 12 samples.

Results

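miR-17, miR-18a and miR-20a are 3 of the 6 hairpins of the miR-17-92 cluster, and the report follows both arms of each: miR-17-5p, miR-17-3p, miR-18a-5p, miR-18a-3p, miR-20a-5p and miR-20a-3p. These 6 names were chosen by name and not by a rule on their values, though with earlier results of these data known. They come from the 1611 miRNA names in the HEK293T tables and the 1854 in the HCT116 tables, of which 1494 are in both. All 6 were counted in every library and passed the filter on low counts in both lines. The study asked how DICER recognises double-stranded RNA, and the libraries used here come from its rescue experiment, in which cells were given back one of 3 forms of DICER. HEK293T, a human embryonic kidney line, and HCT116, a human colon carcinoma line, were each rescued with DICER lacking its double-stranded RNA binding domain (dsRBD deletion), with a form labelled AA, or with wild-type DICER (WT). Each of these 6 groups has 2 libraries, made by AQ-seq, a small RNA sequencing method designed to reduce ligation bias. The labels do not say which residues AA changes, what was done to the cells' own DICER, how much DICER each rescue made, whether a line is 1 clone, or whether replicates came from separate cultures. The p-values below therefore measure the spread between these libraries, which may be technical, and the form of DICER and its amount cannot be told apart.

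A miRNA hairpin is cut out of its primary transcript by DROSHA, and DICER then cuts off the loop to leave a short duplex with a 5p strand and a 3p strand. One strand is kept by Argonaute as the guide and pairs with target mRNAs through its seed, while the other is mostly lost, so the ratio of the arms reflects both cutting and strand choice. Transcription of the miR-17-92 cluster is activated by MYC and E2F factors, and the cluster is amplified in lymphomas and other tumours and is high in dividing cells. miR-17-5p and miR-20a-5p share a seed and repress E2F1, CDKN1A and TGFBR2, while miR-18a-5p has another seed and is known to repress CTGF and the oestrogen receptor ESR1. Processing of the miR-18a hairpin is known to be aided by hnRNP A1, which binds its loop.

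The mature sequences are shown because the seeds place 2 of the 5p arms in one family and set the third apart. They are written 5′ to 3′ and were taken from RefSeq (GRCh38.p14), where all 6 names had an entry. Capitals mark the seed, bases 2 to 8.
hsa-miR-17-5p: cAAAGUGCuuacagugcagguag
hsa-miR-20a-5p: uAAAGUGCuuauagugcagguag
hsa-miR-18a-5p: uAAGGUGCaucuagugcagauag
hsa-miR-17-3p: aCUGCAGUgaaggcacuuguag
hsa-miR-20a-3p: aCUGCAUUaugagcacuuaaag
hsa-miR-18a-3p: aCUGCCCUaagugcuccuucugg
miR-17-5p and miR-20a-5p differ by 2 edits (substitutions, insertions or deletions) and end in the same 11 bases. miR-18a-5p is 6 edits from miR-17-5p and 4 from miR-20a-5p. The 3p arms share their first 5 bases but no seed, and they lie 6 to 9 edits apart. miR-17-5p is 1 edit from miR-106a-5p, a paralog on another chromosome, and miR-18a-5p is 1 edit from miR-18b-5p. The sources used here do not state how a read matching more than 1 name was counted, and these 5p counts may hold reads of their paralogs.

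The hairpins show what DICER cuts, again from RefSeq, 5′ to 3′, with the annotated mature arms in capitals and the loop and flanks in lower case.
MIR17: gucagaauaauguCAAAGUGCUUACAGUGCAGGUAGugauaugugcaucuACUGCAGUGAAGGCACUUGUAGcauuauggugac
MIR18A: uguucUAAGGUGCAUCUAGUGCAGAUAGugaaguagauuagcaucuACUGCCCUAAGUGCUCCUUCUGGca
MIR20A: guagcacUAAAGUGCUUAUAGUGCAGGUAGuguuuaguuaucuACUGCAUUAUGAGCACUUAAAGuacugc
They lie on the plus strand at chr13:91350605-91350688 (MIR17), chr13:91350751-91350821 (MIR18A) and chr13:91351065-91351135 (MIR20A) of GRCh38.p14, inside the non-coding host gene MIR17HG at chr13:91347687-91354577. Of the 3 GENCODE transcripts of MIR17HG, 2 hold each hairpin in an exon and 1 in an intron. The arms of MIR18A are 18 bases apart, against 14 in MIR17 and 13 in MIR20A. All 3 5p arms end in UAG and all 3 3p arms start with ACUGC, so the letters next to the DICER cut are shared. In the folds computed by RNAfold, 5 bases of each arm were unpaired in MIR17, 5 of each arm in MIR18A and 2 of each arm in MIR20A.

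Libraries held 1059778 to 3552613 miRNA reads in HEK293T and 824987 to 4498886 in HCT116, and the deletion libraries were the shallowest of each line. The lowest count of any of the 6 arms was 118 reads, for miR-18a-3p in 1 HCT116 deletion library, far above the 3 reads taken as the floor of detection (at most 3.64 CPM in any library). Of 7 names listed as markers of colon epithelium, 4 were higher in HCT116 with WT DICER, among them miR-21-5p and miR-31-5p, while miR-192-5p, miR-194-5p and miR-215-5p were higher in HEK293T, against that list. Of 4 blood cell markers, miR-142-3p reached 14 CPM in HEK293T libraries and 435 CPM in HCT116 libraries, and miR-142-5p 3.83 and 97.8 CPM, while miR-223-3p and miR-150-5p stayed at or under 7.31 CPM and the muscle and liver markers listed at or under 14.5 CPM in every library. The deletion also lowered the miRNA reads per read of the 30 added spike-in RNAs, to 29.1 and 27.2 in HEK293T, where AA had 58.8 and 44.3 and WT had 82.6 and 80.9. In HCT116 this number was 63.7 and 64.7 with the deletion, 210 and 206 with AA, and 274 and 367 with WT. The spike-ins themselves differed between deletion and WT in HEK293T, where 18 of 30 were called in edgeR's quasi-likelihood test with Benjamini-Hochberg adjustment, against 0 of 30 in HCT116 (0 of 30 also at an unadjusted p under 0.05). The largest spike-in log2 difference between deletion and WT was 1.66 in HEK293T and 1.24 in HCT116, so 0 calls does not show equal spike-ins. Levels below are read counts divided by library size and scaled by TMM (written CPM), which sets the typical miRNA of a line to no change, so they show how the arms moved relative to other miRNAs and not per cell.

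The 6 arms together took a larger share of the miRNA reads in HEK293T than in HCT116. In HEK293T they made up 6.72% and 6.38% of the reads with the deletion, 8.10% and 6.72% with AA, and 8.98% and 8.57% with WT. In HCT116 they made up 2.16% and 2.62% with the deletion, 2.25% and 2.22% with AA, and 2.02% and 2.14% with WT. The deletion libraries were below WT in HEK293T and above WT in HCT116. The exact (Clopper-Pearson) 95% interval, which covers counting error only, ran from 6.33% to 6.42% in HEK293T deletion replicate 2. It ran from 2.13% to 2.20% in HCT116 deletion replicate 1, which overlaps the 2.13% to 2.16% of HCT116 WT replicate 2. miR-20a-5p was the most abundant of the 6 in every HEK293T library, ranking between 5 and 7 among all miRNAs. In HCT116, miR-17-5p led with AA and WT and miR-20a-5p led with the deletion.

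**Figure D1:**
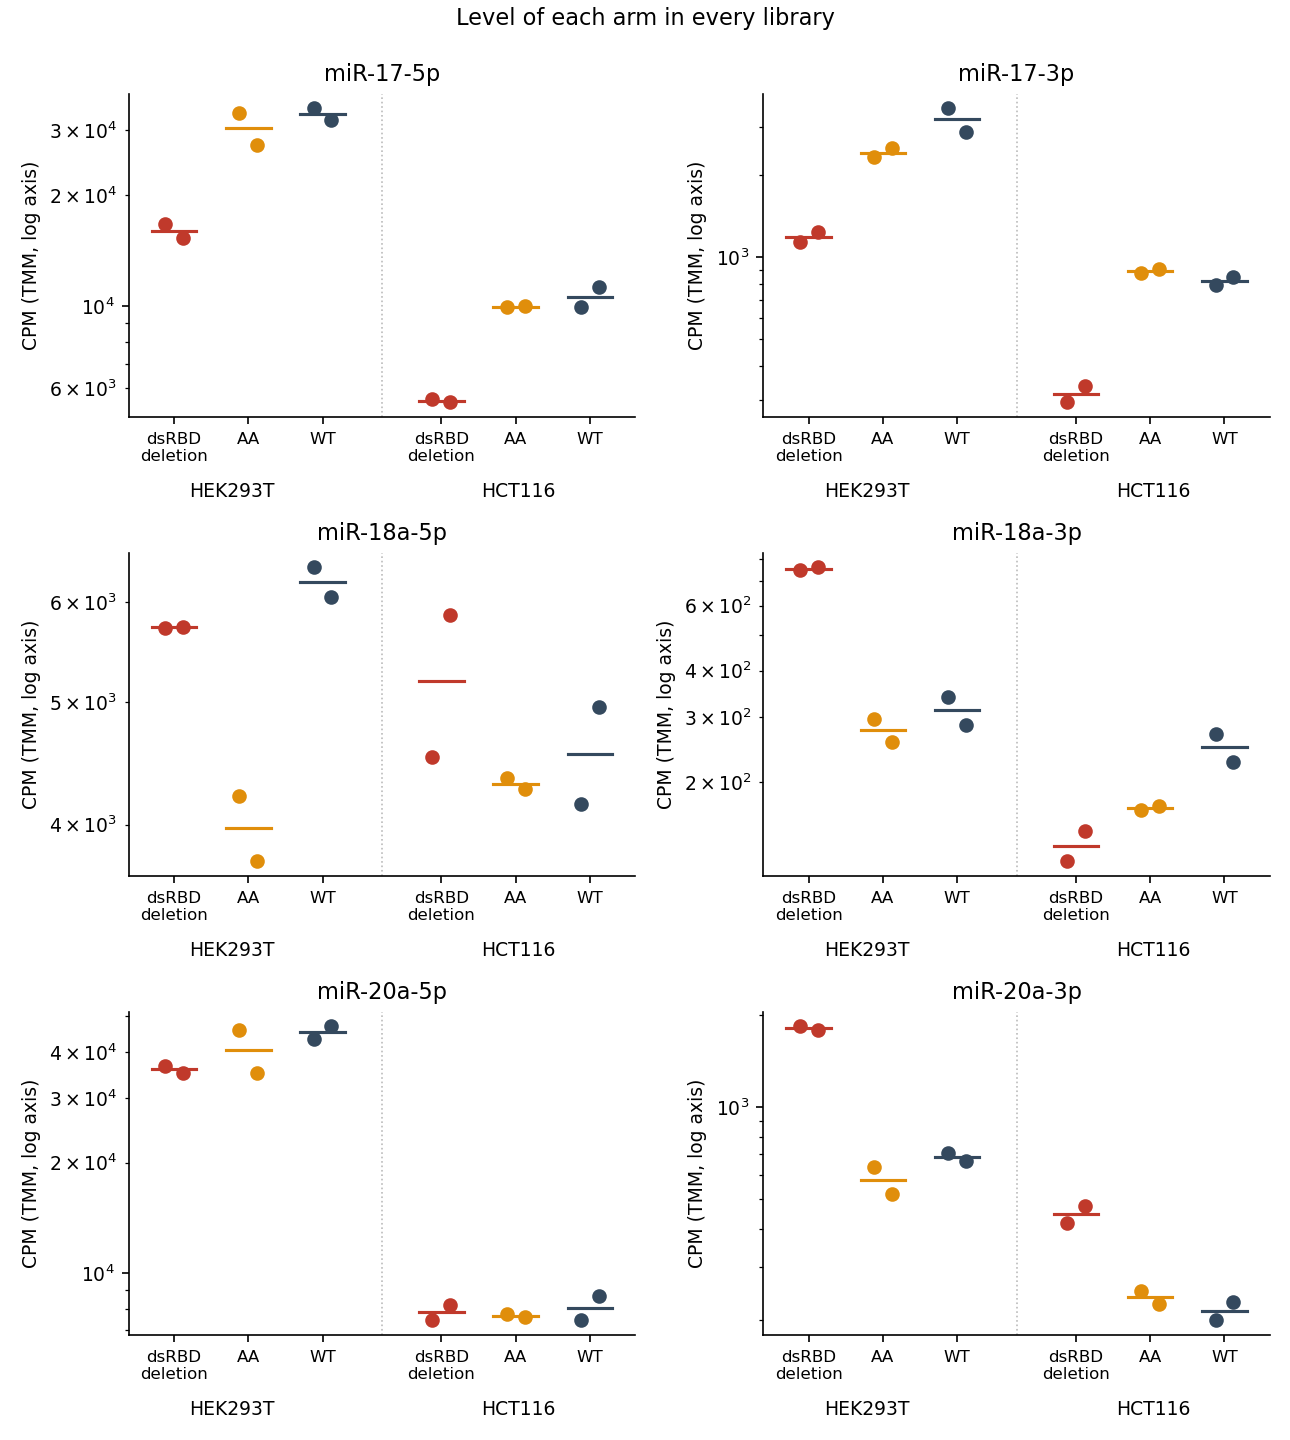
Level of each arm (CPM after TMM scaling within a line, log axis) in all 12 libraries, with HEK293T on the left and HCT116 on the right of each panel. Points are libraries and bars are the means of 2. Both arms of miR-17 sit lowest with the dsRBD deletion in each line, miR-20a-3p sits highest with it, and miR-18a-3p is highest with it in HEK293T and lowest with it in HCT116.

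The 2 arms of miR-17 were lower with the dsRBD deletion than with WT in both lines. miR-17-5p, the guide, stood at 16738 and 15292 CPM with the deletion in HEK293T, at 33549 and 27375 CPM with AA, and at 34461 and 32061 CPM with WT. In HCT116 it stood at 5618 and 5497 CPM with the deletion, at 9982 and 10001 CPM with AA, and at 9982 and 11271 CPM with WT. The deletion libraries lay below every AA and WT library of their line, and AA overlapped WT in each line. Relative to WT, miR-17-5p fell by 1.05 ± 0.17 log2 units (SE) with the deletion in HEK293T and by 0.94 ± 0.11 in HCT116, to 48.1% and 52.3% of WT (edgeR quasi-likelihood test, Benjamini-Hochberg adjusted p = 0.00018 and 3.3e-05, n = 2 libraries a group). With AA it differed from WT by −0.13 ± 0.16 in HEK293T and −0.09 ± 0.11 in HCT116 (edgeR, adjusted p = 0.66 and 0.72), changes that did not pass the test. Set directly against the deletion, AA was higher by 0.93 ± 0.17 in HEK293T and 0.85 ± 0.11 in HCT116 (edgeR, adjusted p = 0.00048 and 8.8e-05).

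miR-17-3p, the less abundant strand of that hairpin, fell further. It had 1138 and 1236 CPM with the deletion in HEK293T, 2334 and 2512 CPM with AA, and 3525 and 2890 CPM with WT. HCT116 libraries had 294 and 337 CPM with the deletion, 879 and 907 CPM with AA, and 789 and 846 CPM with WT. No deletion library overlapped AA or WT, and AA lay below WT in HEK293T and above it in HCT116. The log2 change with the deletion was −1.43 ± 0.17 in HEK293T and −1.37 ± 0.14 in HCT116 (edgeR, adjusted p = 2.5e-05 and 8e-06). The change with AA was −0.40 ± 0.17 in HEK293T and 0.13 ± 0.13 in HCT116, and neither passed (edgeR, adjusted p = 0.12 and 0.65), though the HEK293T value did without WT replicate 2 (−0.64). AA was above the deletion by 1.03 ± 0.17 in HEK293T and 1.5 ± 0.14 in HCT116 (edgeR, adjusted p = 0.00032 and 5.1e-06).

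miR-18a-5p, the guide of the second hairpin, was not called with the deletion in either line after TMM scaling, and in HEK293T it was lowest with AA. It had 5729 and 5739 CPM with the deletion in HEK293T, 4212 and 3742 CPM with AA, and 6396 and 6062 CPM with WT. Those of HCT116 had 4529 and 5867 CPM with the deletion, 4354 and 4270 CPM with AA, and 4156 and 4953 CPM with WT. In HEK293T the 3 groups did not overlap, and in HCT116 both other forms overlapped WT, with the deletion replicates far apart. The deletion gave −0.12 ± 0.16 in HEK293T and 0.19 ± 0.15 in HCT116, which did not pass (edgeR, adjusted p = 0.50 and 0.27). On library totals alone the HCT116 value was 0.73 and passed (edgeR, adjusted p = 0.0035). With AA it fell in HEK293T by 0.65 ± 0.16, to 63.9% of WT (edgeR, adjusted p = 0.015), whereas the change in HCT116 was −0.08 ± 0.15 (edgeR, adjusted p = 0.82). The HEK293T call was lost, at −0.60 to −0.50, when WT replicate 1, AA replicate 2 or either deletion library was left out. AA was also below the deletion in HEK293T, at −0.53 ± 0.16 (edgeR, adjusted p = 0.011), a call lost without deletion replicate 1 (−0.42), deletion replicate 2 (−0.31) or AA replicate 2 (−0.31), and with no filter on low counts (−0.32). In HCT116 that difference was −0.27 (edgeR, adjusted p = 0.14).

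After TMM scaling, miR-18a-3p moved in opposite directions in the lines with the deletion, the widest split among the 6 arms. In HEK293T it had 748 and 762 CPM with the deletion, 296 and 256 CPM with AA, and 340 and 286 CPM with WT. In HCT116 it had 122 and 147 CPM with the deletion, 168 and 172 CPM with AA, and 269 and 227 CPM with WT. The deletion libraries were the highest of the line in HEK293T and the lowest in HCT116. Relative to WT the deletion gave 1.27 ± 0.17 in HEK293T, a 2.42-fold rise, and −0.87 ± 0.16 in HCT116 (edgeR, adjusted p = 6.3e-05 and 0.00083). On library totals alone the HCT116 value was −0.35 and did not pass (edgeR, adjusted p = 0.13). With AA the values were −0.18 ± 0.17 in HEK293T and −0.54 ± 0.16 in HCT116 (edgeR, adjusted p = 0.53 and 0.059). The HCT116 value missed the threshold with all libraries and passed it without WT replicate 2 (−0.67) or without either deletion library (−0.54 each time). AA was below the deletion in HEK293T, at −1.45 ± 0.18 (edgeR, adjusted p = 3.2e-05), while in HCT116 the difference of 0.33 did not pass (edgeR, adjusted p = 0.11). That difference passed with DESeq2 size factors (0.42), with no filter (0.57), and without WT replicate 1 (0.45) or deletion replicate 2 (0.57), and with library totals it was −0.03.

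miR-20a-5p shares its seed with miR-17-5p, but after TMM scaling its change with the deletion was not called in either line. With the deletion it had 36696 and 35036 CPM in HEK293T, against 45908 and 34990 CPM with AA and 43403 and 47020 CPM with WT. HCT116 libraries had 7443 and 8195 CPM with the deletion, 7729 and 7602 CPM with AA, and 7474 and 8653 CPM with WT. In HEK293T the deletion libraries lay below both WT libraries and the AA pair spanned from the deletion range into that of WT, and in HCT116 all 3 forms overlapped. The deletion gave −0.33 ± 0.17 in HEK293T and −0.04 ± 0.12 in HCT116, and AA gave −0.16 ± 0.17 and −0.07 ± 0.12, none past the threshold (edgeR, adjusted p = 0.10, 0.75, 0.57 and 0.80). The HEK293T deletion value passed when either AA library was left out (−0.41 each time) and with no filter on low counts (−0.65). On library totals the HCT116 deletion value was 0.49 and passed (edgeR, adjusted p = 0.004).

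On the TMM scale miR-20a-3p, the minor strand, rose with the deletion in both lines. It had 1844 and 1788 CPM with the deletion in HEK293T, 635 and 518 CPM with AA, and 708 and 664 CPM with WT. Those of HCT116 had 416 and 476 CPM with the deletion, 249 and 227 CPM with AA, and 200 and 230 CPM with WT. The deletion libraries were the highest of their line without overlap. The rise was 2.65-fold in HEK293T (log2 1.40 ± 0.17) and 2.08-fold in HCT116 (log2 1.06 ± 0.15; edgeR, adjusted p = 2.6e-05 and 0.00012). AA gave −0.25 ± 0.17 in HEK293T and 0.15 ± 0.15 in HCT116 relative to WT (edgeR, adjusted p = 0.34 and 0.65). Set against the deletion, AA gave −1.65 ± 0.17 in HEK293T and −0.91 ± 0.15 in HCT116 (edgeR, adjusted p = 1e-05 and 0.00042).

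**Figure D2:**
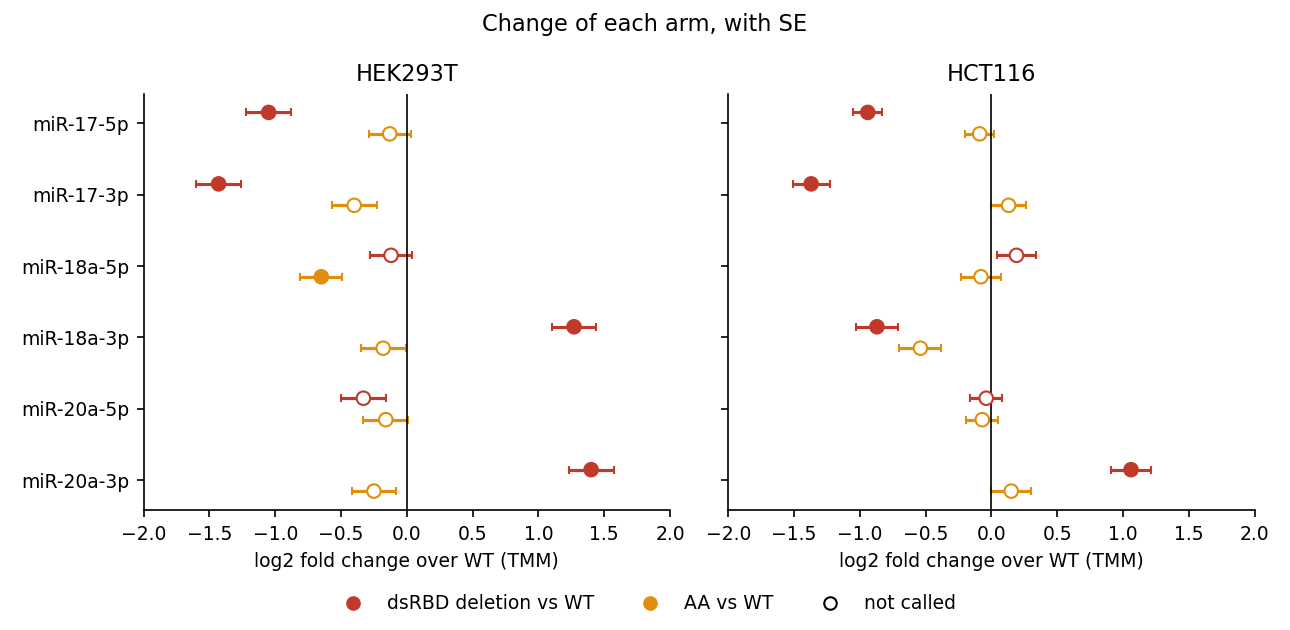
Log2 fold change over WT (TMM-scaled counts) of the 6 arms with the dsRBD deletion (red) and with AA (orange), HEK293T on the left and HCT116 on the right. Bars are SE from edgeR, filled points passed an adjusted p of 0.05 and open points did not. Both miR-17 arms are near −1 or below with the deletion, miR-20a-3p is above 1, and miR-18a-3p lies at 1.27 in HEK293T and −0.87 in HCT116.

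Counted over the 6 arms, the deletion changed 4 in each line: 2 rose and 2 fell in HEK293T, and 1 rose and 3 fell in HCT116. Among all names tested, 75.6% of 626 were called in HEK293T (35.9% higher, 39.6% lower) and 62.1% of 795 in HCT116 (28.1% higher, 34.1% lower), so 4 of 6 is near what the deletion did to miRNAs in general. The median log2 change of the 6 arms was −0.23 in HEK293T and −0.46 in HCT116, against −0.07 and −0.01 over all names. In HEK293T all 6 deletion pairs lay apart from the WT pairs, as did 89% of the names tested, and in HCT116 4 of 6 did, as did 82.5%. With AA, 1 of 6 was called in HEK293T, where 21.4% of names were (15.2% lower), and 0 of 6 in HCT116, where 7.42% were. That 0 comes from edgeR's test and was also 0 with DESeq2, and 1 arm, miR-18a-3p, had an unadjusted p under 0.05. AA against the deletion called 5 of 6 in HEK293T and 3 of 6 in HCT116, beside 73% and 56.5% of all names. The comparisons of a line share its WT or deletion libraries and are not independent of each other.

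Scaling by the spike-ins in place of TMM called all 6 arms lower with the deletion in HCT116 and 4 of 6 in HEK293T, where miR-18a-3p and miR-20a-3p did not pass. In HEK293T the spike-in scale gave −2.48 for miR-17-5p, −2.87 for miR-17-3p, −1.55 for miR-18a-5p, −0.16 for miR-18a-3p, −1.76 for miR-20a-5p and −0.02 for miR-20a-3p, and over all names the median was −1.5. In HCT116 it gave −2.73, −3.15, −1.60, −2.64, −1.84 and −0.73 in the same order of arms, with a median of −1.77. The rise of miR-20a-3p in both lines and of miR-18a-3p in HEK293T was thus not seen on this scale. The fall of both miR-17 arms was called on each scale tried, but in HCT116 it was −0.41 for miR-17-5p and −0.84 for miR-17-3p on library totals. Per 1000 spike-in reads, miR-20a-3p had 57.4 and 51.9 with the deletion in HEK293T against 59.1 and 51.8 with WT, which overlap. miR-17-5p had 521 and 444 with the deletion in HEK293T against 2879 and 2498 with WT, far apart.

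Ratios within a library need no scale between libraries, and the 5p to 3p ratio gives the use of the arms. The deletion raised the 3p share of miR-20a in both lines. miR-20a had 19.9 and 19.6 reads of 5p per read of 3p with the deletion in HEK293T, 72.2 and 67.6 with AA, and 61.3 and 70.8 with WT. In HCT116 it had 17.9 and 17.2 with the deletion, 31.0 and 33.4 with AA, and 37.4 and 37.7 with WT. The deletion libraries of the lines came close to each other, while the WT libraries differed. The log2 ratio changed by −1.74 ± 0.16 in HEK293T and −1.10 ± 0.17 in HCT116 (edgeR test of arm by group, Benjamini-Hochberg adjusted p = 1.8e-08 and 6e-06).

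The arms of miR-18a shifted toward 3p in HEK293T and toward 5p in HCT116. The ratio was 7.65 and 7.53 with the deletion in HEK293T, 14.2 and 14.6 with AA, and 18.8 and 21.2 with WT. In HCT116 it was 37.2 and 39.8 with the deletion, 25.9 and 24.8 with AA, and 15.5 and 21.8 with WT. The 3 forms did not overlap in either line, AA stood between the others in both, and the WT libraries of the lines covered a like range. The deletion changed the log2 ratio by −1.40 ± 0.23 in HEK293T and 1.07 ± 0.19 in HCT116 (edgeR, adjusted p = 2.7e-05 and 4.8e-05). With AA the values were −0.47 ± 0.23 and 0.47 ± 0.18, below the threshold with all libraries (edgeR, adjusted p = 0.22 and 0.11). The HCT116 value with AA passed without WT replicate 2 (0.71) or either deletion library (0.47 each time).

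For miR-17 the ratio moved least of the 3 with the deletion. It was 14.7 and 12.4 with the deletion in HEK293T, 14.4 and 10.9 with AA, and 9.77 and 11.1 with WT. In HCT116 it was 19.1 and 16.3 with the deletion, 11.4 and 11 with AA, and 12.7 and 13.3 with WT. The deletion libraries were above WT in both lines. The log2 change was 0.37 ± 0.19 in HEK293T and 0.44 ± 0.17 in HCT116, past the threshold only in HCT116 with all libraries in the fit (edgeR, adjusted p = 0.092 and 0.03). The HCT116 call was lost without WT replicate 1 (0.40), deletion replicate 1 (0.33) or either AA library (0.44) and with a minimum of 1 read per arm (0.44), and the HEK293T value passed without either AA library (0.37). With AA it gave 0.27 ± 0.19 and −0.21 ± 0.17 (edgeR, adjusted p = 0.42 and 0.49).

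**Figure D3:**
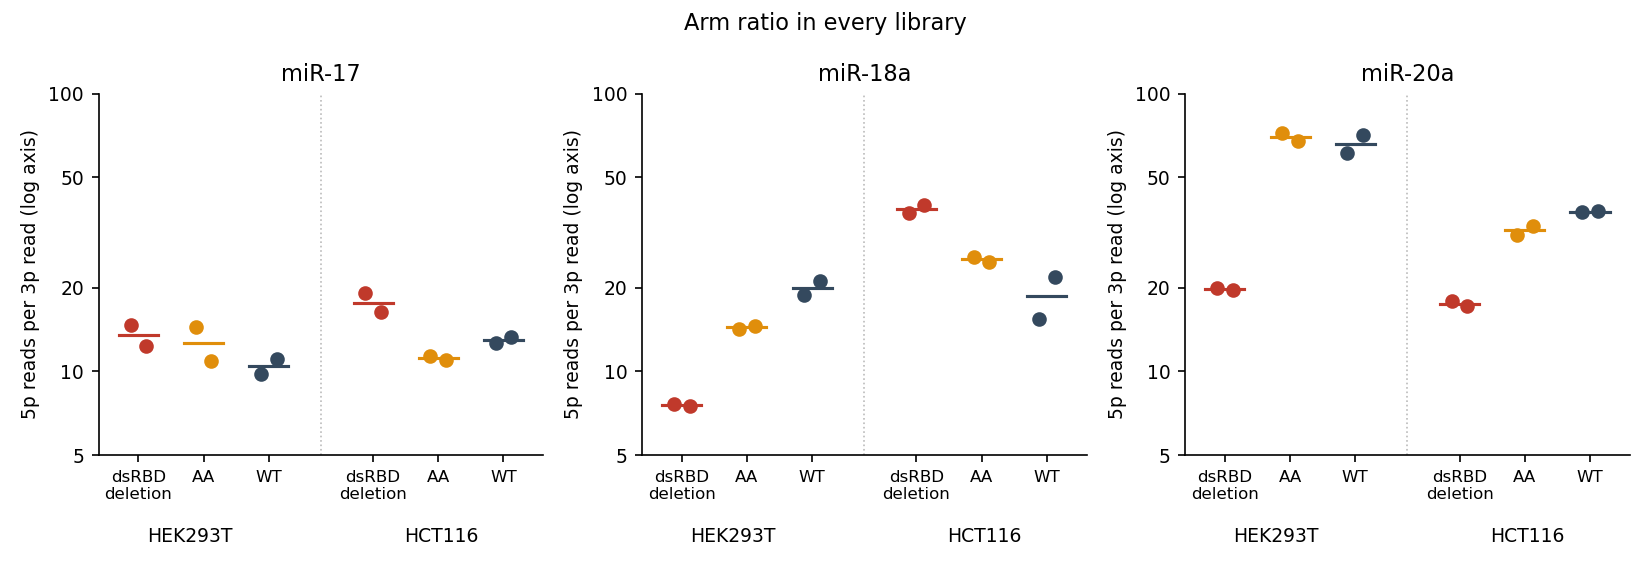
Reads of the 5p arm per read of the 3p arm (log axis) for each hairpin in all 12 libraries, HEK293T on the left and HCT116 on the right of each panel. Points are libraries and bars are means of 2. With the deletion miR-20a drops to between 17.2 and 19.9 in both lines, and miR-18a drops to 7.53 and 7.65 in HEK293T while it reaches 37.2 and 39.8 in HCT116.

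With the deletion, arm use was called for 2 of 3 hairpins in HEK293T and 3 of 3 in HCT116, beside 57.8% of 180 hairpins and 62.4% of 229 with enough reads on both arms. Calls toward 3p made up 27.8% of all hairpins in HEK293T and 15.7% in HCT116. Calls toward the other arm were 54 of 180 hairpins in HEK293T and 107 of 229 in HCT116. The median log2 change of the ratio over all hairpins was 0.37 in HEK293T and 0.87 in HCT116. In HCT116 miR-18a (1.07) lay near that median, miR-17 (0.44) lay below it and miR-20a (−1.1) had the opposite sign. In HEK293T miR-17 (0.37) lay at the median, while miR-18a (−1.4) and miR-20a (−1.74) had the opposite sign. With AA none of the 3 was called in either line, where 10.6% and 13.5% of hairpins were. miR-18a in HCT116 was the 1 of these with an unadjusted p under 0.05. DESeq2 was not run on arm use.

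The balance between the 5p arms of the cluster, which come from the same primary transcript, also moved with the deletion. miR-20a-5p had 2.19 and 2.29 reads per read of miR-17-5p with the deletion in HEK293T, 1.37 and 1.28 with AA, and 1.26 and 1.47 with WT. In HCT116 the ratio was 1.32 and 1.49 with the deletion, 0.774 and 0.760 with AA, and 0.749 and 0.768 with WT. The deletion libraries lay above WT in each line and AA overlapped WT. The ratio was 1.65 times that of WT in HEK293T and 1.85 times in HCT116 (exact two-sided permutation p = 0.333 each, the smallest that 2 against 2 libraries allow). In HCT116 the deletion turned the order of the pair, since miR-17-5p exceeded miR-20a-5p with AA and WT.

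miR-18a-5p had 0.342 and 0.375 reads per read of miR-17-5p with the deletion in HEK293T, 0.126 and 0.137 with AA, and 0.186 and 0.189 with WT. In HCT116 it had 0.806 and 1.07 with the deletion, 0.436 and 0.427 with AA, and 0.416 and 0.439 with WT. The ratio with the deletion was 1.91 times that of WT in HEK293T and 2.17 times in HCT116 (exact two-sided permutation p = 0.333 each). With AA it was below WT in HEK293T by 0.52 log2 units, without overlap (exact permutation p = 0.333), and overlapped WT in HCT116. Between miR-18a-5p and miR-20a-5p the deletion moved the log2 ratio by 0.21 in HEK293T and 0.23 in HCT116, less than either moved against miR-17-5p. Such ratios also carry how well each miRNA is cloned, which was not tested.

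**Figure D4:**
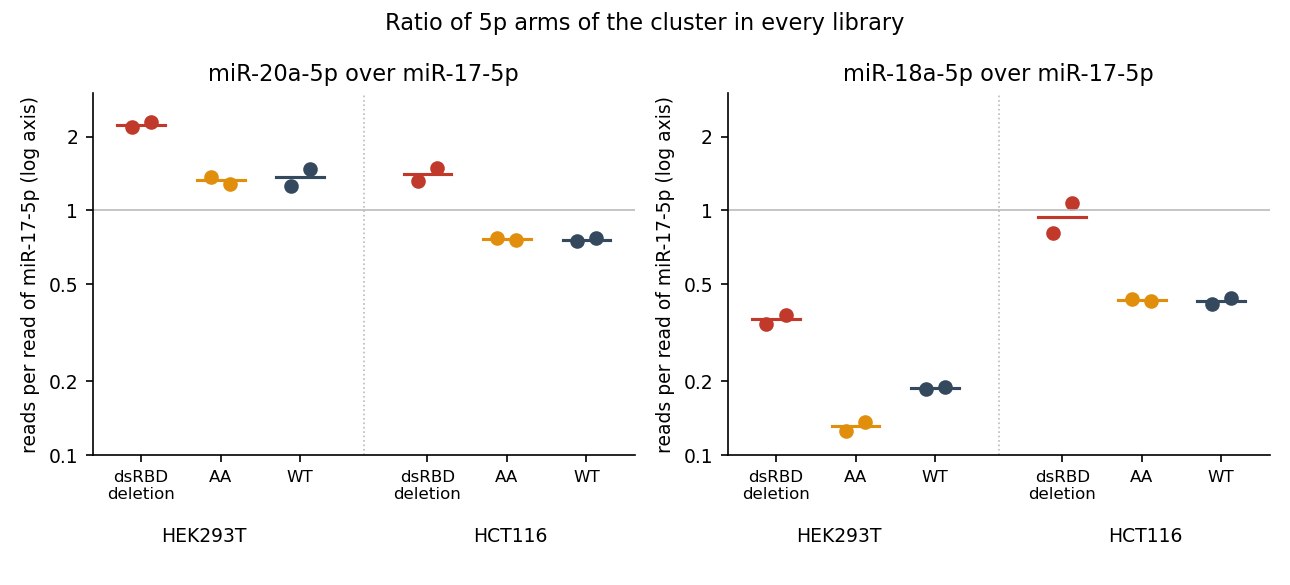
Reads of miR-20a-5p (left panel) and miR-18a-5p (right panel) per read of miR-17-5p (log axis) in all 12 libraries, HEK293T on the left and HCT116 on the right of each panel. Points are libraries and bars are means of 2. The deletion libraries are above AA and WT in each line, and in HCT116 they cross 1 for miR-20a-5p.

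Comparing the lines with WT DICER, 5 of the 6 arms were higher in HEK293T, where 32% of the 844 names tested were called higher and 73.2% were called either way. On counts scaled over all 12 libraries, miR-20a-5p had 38404 and 48786 CPM in HEK293T and 7469 and 8596 CPM in HCT116. miR-17-5p had 30492 and 33265 CPM in HEK293T and 9975 and 11196 CPM in HCT116. The lines did not overlap for either guide. The log2 difference was 2.44 ± 0.18 for miR-20a-5p, 1.59 ± 0.16 for miR-17-5p, 1.91 ± 0.17 for miR-17-3p and 1.62 ± 0.18 for miR-20a-3p (edgeR, adjusted p = 2.9e-11, 1e-08, 1e-09 and 3.5e-08), against a median of −0.39 over all names. miR-18a-5p gave 0.40 ± 0.17 (edgeR, adjusted p = 0.041), a call lost without HCT116 WT replicate 1 (0.23), either HCT116 AA library (0.41 and 0.42), either HEK293T WT library (0.41 and 0.36) or either HEK293T deletion library (0.39 each). miR-18a-3p gave 0.27 ± 0.18 (edgeR, adjusted p = 0.17), and passed at 0.55 on library totals. On the spike-in scale, where the median over all names was −2.05, miR-20a-5p alone stayed higher in HEK293T past the threshold (0.73), miR-17-5p turned to −0.11, and both arms of miR-18a were lower (−1.31 and −1.40). The arm ratio of miR-20a was higher in HEK293T by 0.81 ± 0.18 log2 units (edgeR, adjusted p = 0.00027), 1 call of 3 hairpins where 41.8% of 244 were called, while those of miR-17 (−0.32) and miR-18a (0.12) did not pass (edgeR, adjusted p = 0.19 and 0.71).

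Whether the deletion acted differently in the lines was tested as a difference of changes, HEK293T minus HCT116, over all 12 libraries. That fit filters and scales the 12 libraries together, so its differences do not equal the gaps between the changes found within each line. Within lines, the median change over all names was −0.07 in HEK293T and −0.01 in HCT116. miR-18a-3p gave 2.47 ± 0.26 log2 units and miR-20a-3p 0.66 ± 0.25 (edgeR, adjusted p = 1.1e-07 and 0.043), 2 calls of 6 where 34.8% of names were called. The other arms gave 0.19 (miR-17-5p), 0.26 (miR-17-3p), 0.00 (miR-18a-5p) and 0.02 (miR-20a-5p), none past the threshold, against a median of 0.34 over all names. miR-18a-3p was called in every fit with a library left out, between 2.26 and 2.57. The miR-20a-3p call was lost in 9 of 12 such fits, where it lay between 0.38 and 0.76, and with DESeq2 (0.36), DESeq2 size factors (0.36), no filter (0.32), spike-in totals (0.71) and the replicate block (0.66). For arm use, miR-18a gave −2.47 ± 0.31 and miR-20a −0.64 ± 0.25 (edgeR, adjusted p = 2.1e-07 and 0.043). miR-17 gave −0.07 (edgeR, adjusted p = 0.91), beside 34.8% of hairpins called. Over all 244 hairpins the median was −0.77, so the miR-20a value lay near it. The miR-20a arm call was lost in 9 of 12 fits with a library left out (−0.67 to −0.54 in those). For AA the line difference was called for none of the 6 arms (3.91% of names) and none of the 3 hairpins (0.82%). In edgeR no arm had an unadjusted p under 0.05 for level, DESeq2 also called 0, and among hairpins only miR-18a had such a p, with −0.94 ± 0.31 (edgeR, adjusted p = 0.097).

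The other 3 hairpins of the cluster give 6 more arms, of which the deletion raised 5 and lowered 1 in HEK293T, and raised 4 and lowered 1 in HCT116. Over all names 35.9% were called higher and 39.6% lower in HEK293T, and 28.1% higher and 34.1% lower in HCT116. The most abundant were miR-19b-3p and miR-92a-3p. miR-19b-3p averaged 247604 ± 949 CPM with the deletion and 52938 ± 3774 CPM with WT in HEK293T, and 12672 ± 1048 CPM and 9233 ± 1001 CPM in HCT116 (SD, n = 2). It rose by 2.23 ± 0.17 in HEK293T and 0.46 ± 0.12 in HCT116, whereas miR-92a-3p fell by 0.72 ± 0.15 and 0.51 ± 0.16 (edgeR, adjusted p = 5.8e-07, 0.0072, 0.0015 and 0.017). Among the arms listed for the cluster the changes thus ran in both directions, with miR-17 the only hairpin whose arms were both lower in both lines. The related miR-106a-363 cluster also holds miR-19b and miR-92a hairpins. Reads of miR-19b-3p and miR-92a-3p may come from either cluster, which was not tested. AA raised 2 of these 6 in HEK293T, where 6.23% of names were called higher, and in HCT116 their edgeR adjusted p lay between 0.40 and 0.98, where 7.42% of names were called.

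**Figure D5:**
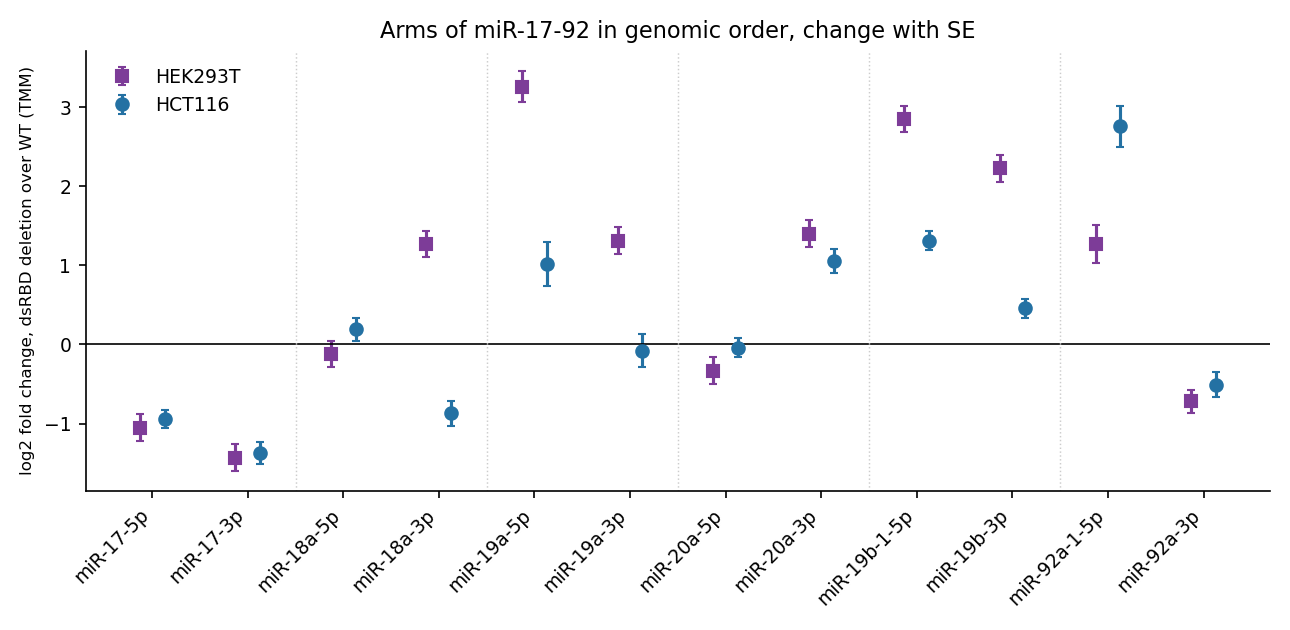
Log2 fold change with the dsRBD deletion over WT (TMM-scaled counts) for the 12 arms of miR-17-92, placed in genomic order of their hairpins, not to scale, with HEK293T as squares and HCT116 as circles. Bars are SE from edgeR. The miR-17 arms lie below 0 in both lines, miR-20a-3p lies above 0 in both, and miR-18a-3p is split between the lines.

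Paralogs of the 6 arms sit in 2 other clusters. In miR-106a-363, on the X chromosome, 3 of 10 names had enough reads to test. With the deletion 1 was called higher and 1 lower in HEK293T, and 1 was called lower in HCT116. Among all names 35.9% were called higher and 39.6% lower in HEK293T, and 28.1% higher and 34.1% lower in HCT116. The 2 most abundant are given here. miR-106a-5p, which has the miR-17-5p seed and lies 1 edit from it, fell by 1.58 ± 0.20 in HEK293T and 1.10 ± 0.14 in HCT116 with the deletion (edgeR, adjusted p = 3.5e-05 and 5e-05). miR-18b-5p, 1 edit from miR-18a-5p, gave 0.27 ± 0.22 and 0.01 ± 0.21 with the deletion, and with AA it fell in HEK293T by 1.25 ± 0.23 (edgeR, adjusted p = 0.28, 0.97 and 0.0034). miR-106a-5p and miR-18b-5p thus each had a call in the same comparison and direction as the near-identical partner. Reads shared between such names were not tested. In miR-106b-25 the deletion lowered 5 of 6 arms and raised 1 in each line, beside 39.6% of names called lower in HEK293T and 34.1% in HCT116. miR-93-5p, with the miR-17-5p seed, fell by 6.42 ± 0.21 in HEK293T and 1.54 ± 0.14 in HCT116 (edgeR, adjusted p = 8.1e-09 and 4.6e-06).

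Over the 12 libraries, with the mean of each line removed, the log2 levels of the arms of miR-17 ran together (Pearson r = 0.956), while those of miR-18a (0.443) and miR-20a (−0.285) did not track each other closely. miR-17-5p and miR-20a-3p ran in opposite directions (−0.877). Among 270 other names with at least 100 CPM, miR-17-5p was most like miR-454-3p (0.987) and miR-140-5p (0.985), and miR-17-3p most like miR-505-3p (0.991) and miR-301a-3p (0.988). miR-18a-5p was most like let-7g-5p (0.877) and miR-18b-5p (0.844), and miR-18a-3p most like miR-125b-5p (0.962) and miR-23a-3p (0.960). miR-20a-5p had the weakest likeness, with let-7f-5p (0.720) and miR-28-3p (0.608), and miR-20a-3p was most like miR-29c-5p (0.988) and miR-491-5p (0.981). These values describe 12 libraries that share 6 groups and a scaling, and the deletion libraries set much of the spread for the arms that it changed.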

How the data were processed

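The deposited files hold raw counts per miRNA name and per spike-in RNA, 1 table for each of the 12 libraries. Per the labels' protocols, 100 µg of total RNA went into each AQ-seq library, sequenced on a NovaSeq instrument. The submitters' processing notes name cutadapt, BWA and bedtools and the builds hg38 and mm10, with no roles given, while the sources used here state neither the miRNA annotation nor how multiply matching reads were handled. The 6 names and the lists of relatives were chosen with earlier results of these data known.

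Spike-ins were left out of library sizes. In R 4.3.3, low names were dropped by filterByExpr over the groups (minimum count 10) and the rest tested after TMM scaling in edgeR 4.0.16 (quasi-likelihood F test, two-sided), with the 6 libraries of a line in 1 fit, or all 12 for contrasts between lines, and Benjamini-Hochberg adjustment over all names at 0.05. SE is the log2 change divided by the square root of F. Arm use was the arm-by-group term of an edgeR fit that blocks on library, over hairpins whose arms each reached 10 reads in 2 libraries, with 9 comparisons of levels and 7 of arm use. The level and arm-use steps were run on simulated data for HCT116 deletion against WT only, not for HEK293T or the contrasts between lines. Folds used RNAfold (ViennaRNA 2.7.2), and figures matplotlib 3.10.9. Named were all 6 arms, up to 2 most abundant names of each list of relatives, and for likeness the 2 names with the highest correlation. Same-numbered libraries did not deviate together (correlations of −0.104 to 0.147), so numbers were not used as pairs. Alternatives were DESeq2 1.42.0, DESeq2 size factors, library totals, spike-in totals, no filter, other read minimums for arms, a replicate block and leaving out each library.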

Additional observations from a re-analysis of the deposited data

Results flagged for a closer look

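The effect of the dsRBD deletion differed between HEK293T and HCT116 for the level of miR-18a-3p, by 2.47 ± 0.26 log2 units (HEK293T minus HCT116, edgeR, Benjamini-Hochberg adjusted p = 1.1e-07), and by 1.73 to 2.48 over the 4 scalings tried, called on each. The fall in HCT116 alone was not called on library totals (−0.35). After TMM scaling miR-18a-3p rose in both libraries of HEK293T and fell in both of HCT116. On spike-in totals its change with the deletion was −0.16 in HEK293T, not called, and −2.64 in HCT116, so the directions were not opposite on that scale. The arm ratio of miR-18a, which needs no scale between libraries, differed by −2.47 ± 0.31 (edgeR, adjusted p = 2.1e-07). The level of miR-20a-3p differed by 0.66 ± 0.25, and the arm ratio of miR-20a by −0.64 ± 0.25 (edgeR, adjusted p = 0.043 each), with the same direction in both lines and a larger change in HEK293T. In these fits the median line difference was 0.34 over all names and −0.77 over all hairpins. The level call was lost with the replicate block (edgeR adjusted p = 0.064), DESeq2, DESeq2 size factors, no filter and spike-in totals, turned to −0.07 on library totals, and was lost in 9 of 12 fits with a library left out. The arm call was lost in 9 of 12 such fits and with a minimum of 1 read per arm. The other 6 arms of miR-17-92 gave 4 calls higher and 1 lower for the line difference in level, beside 34.8% of all names called. Each group has 2 libraries. In HEK293T 18 of 30 spike-ins were also called different between deletion and WT (0 of 30 in HCT116, with log2 differences up to 1.24). Their part in these differences was not tested.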

How the results depend on the processing

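Scaling mattered most. A result is counted as turned where its sign changed and it was called under either setting; other sign changes, all of values not called under either, are not listed. Of 54 level results, DESeq2 size factors, DESeq2's own test, no filter on low counts and the replicate block turned none. Spike-in totals turned 12: with the deletion over WT, miR-18a-5p (−1.60) and miR-20a-3p (−0.73) in HCT116 and miR-18a-3p (−0.16) and miR-20a-3p (−0.02) in HEK293T; with AA over the deletion, miR-18a-5p (1.06), miR-20a-5p (1.31) and miR-20a-3p (0.43) in HCT116 and miR-18a-5p (0.18) in HEK293T; and between the lines with WT, miR-17-5p (−0.11), miR-18a-5p (−1.31), miR-18a-3p (−1.40) and miR-20a-3p (−0.08). Library totals turned 5: miR-20a-5p in HCT116 deletion over WT (0.49), and the line difference in the deletion effect of miR-17-5p (−0.54), miR-18a-5p (−0.74), miR-20a-5p (−0.71) and miR-20a-3p (−0.07). The medians over all names moved alike (deletion over WT, −1.5 in HEK293T and −1.77 in HCT116 with spike-ins, and 0.52 in HCT116 with library totals).

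Counts of called arms that changed by over 1.5 times were these. With spike-in totals, AA over WT called 6 in HEK293T (1 with TMM) and 1 in HCT116 (0), AA over the deletion 5 in HCT116 (3), also 5 with library totals, and the lines with WT 3 (5). The line difference in the deletion effect was called for 1 arm in place of 2 with DESeq2 size factors, spike-in totals, no filter or DESeq2, and for 4 with library totals, and that in the AA effect for 2 with library totals (0 with TMM). For arm use it was called for 1 hairpin with at least 1 read per arm (2 at 10 reads), and the AA line difference for 1 with at least 50 (0). Leaving out 1 library gave 0 to 1 calls for AA in HCT116 (levels and arms), 0 to 2 for AA in HEK293T and 1 to 2 for both line differences in the deletion effect. For the other comparisons it moved the count by at most 1. Smaller changes with a scale were deletion over WT in HCT116 (4 with TMM, 5 with library totals, 6 with spike-ins), AA over the deletion in HCT116 (4 with DESeq2 size factors) and the lines with WT (6 with library totals), and no filter moved 3 counts by 1.

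The replicate block ended 1 call, the line difference of miR-20a-3p (0.66, edgeR adjusted p = 0.064), leaving 1 arm called, and changed no other call. Causes of these changes were not tested beyond the scales named. Depth limits miR-18a-3p most, at 118 reads in its lowest library.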
